A study of Mus musculus with 18 samples.

Results

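The genes described here encode matrix metalloproteinases (Mmp), ADAMTS proteases and their inhibitors, the TIMPs. They were taken by symbol alone, as Mmp, Adamts or Timp followed by a number, and 46 of the 48952 genes in the deposited table carried such a symbol. Of the 46, 42 encode proteases (23 Mmp and 19 Adamts genes) and 4 encode inhibitors (Timp1 to Timp4). They were measured in 18 lung metastases that had arisen from AT3 cells, a carcinoma line that stems from a mammary tumour of an MMTV-PyMT mouse and that carried GFP and mCherry here. From tumours in the mammary fat pad the cells reached the lungs unaided, and single lesions were cut from frozen sections with a laser.

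The NK group held 7 lesions from 2 mice given 60000 in vitro activated murine NK cells by vein on day 11 (3 lesions of mouse NK1 and 4 of mouse NK2). The Ctrl group held 11 lesions from 3 mice given PBS (5 lesions of mouse KO1, 4 of KO2 and 2 of KO3). Every host was labelled Rag2-/-IL2rg-/-, although the growth protocol names Rag1-/-IL2rg-/-, so all of them lacked T, B and NK cells of their own and kept neutrophils and macrophages. Ages of the animals were not used here. A lesion is written as mouse and lesion number, and the mouse was the replicate, since lesions of one mouse are not independent.

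Matrix metalloproteinases are zinc enzymes that cut collagens, gelatin, elastin and other matrix proteins, and that also release growth factors held in the matrix. Most are secreted as inactive precursors, some are anchored in the cell membrane, and several are stored in or made by neutrophils and macrophages. ADAMTS enzymes are secreted relatives with thrombospondin repeats, which cut proteoglycans such as versican or trim the ends of procollagens. TIMPs bind the active site of metalloproteinases tightly and block it, and Timp3 also inhibits several ADAM and ADAMTS enzymes.

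Of the 23 Mmp genes, 10 lie side by side on chromosome 9 within 427.1 kb (GRCm38, chr9:7272514-7699585). Promoters of 4 of them, with that of Timp1 beside them, are shown because many collagenase and stromelysin genes are known to carry an AP-1 element close to the start site. RefSeq start sites (GRCm38.p6) were used for 32 of the 46 genes, and the 300 bases from 250 before to 50 after each start were searched for TGAGTCA and for TGACTCA, which is the same element read on the other strand. The element was present in 6 of the 10 promoters of the chromosome 9 genes (60.0%), in 6 of the 32 member promoters (18.75%), in 0 of the 4 Timp promoters and in 1709 of 32851 listed promoters of all genes (5.202%). It began 46 bases before the start in Mmp3, 35 in Mmp13, 63 in both Mmp10 and Mmp7, 73 in Mmp1a and 93 in Mmp1b. The start of Mmp12 nearest to the gene model had none, whereas its second listed start had one 44 bases before it. A match describes these letters and not a bound site. In the promoters printed here the element is in capitals, and those of Mmp8 and Timp1 have no match in this window.
Mmp3, chr9:7445572-7445871, plus strand: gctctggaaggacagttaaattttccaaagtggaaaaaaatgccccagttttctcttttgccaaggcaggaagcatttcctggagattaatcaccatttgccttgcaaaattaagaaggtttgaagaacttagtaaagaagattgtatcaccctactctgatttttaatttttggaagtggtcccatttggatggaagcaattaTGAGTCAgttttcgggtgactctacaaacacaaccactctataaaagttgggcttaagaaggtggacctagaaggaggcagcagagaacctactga
Mmp13, chr9:7272264-7272563, plus strand: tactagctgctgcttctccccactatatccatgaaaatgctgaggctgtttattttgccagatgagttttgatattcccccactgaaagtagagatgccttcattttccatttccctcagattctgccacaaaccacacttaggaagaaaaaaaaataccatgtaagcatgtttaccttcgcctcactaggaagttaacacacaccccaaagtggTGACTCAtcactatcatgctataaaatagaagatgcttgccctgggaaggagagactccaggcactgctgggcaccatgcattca
Mmp12, second start, chr9:7347124-7347423, plus strand: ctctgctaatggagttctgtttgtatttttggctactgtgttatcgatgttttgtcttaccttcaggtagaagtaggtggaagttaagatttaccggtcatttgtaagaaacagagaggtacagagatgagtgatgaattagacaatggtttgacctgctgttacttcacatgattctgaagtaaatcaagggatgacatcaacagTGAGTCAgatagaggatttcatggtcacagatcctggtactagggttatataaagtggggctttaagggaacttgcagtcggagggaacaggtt
Mmp8, chr9:7558179-7558478, plus strand: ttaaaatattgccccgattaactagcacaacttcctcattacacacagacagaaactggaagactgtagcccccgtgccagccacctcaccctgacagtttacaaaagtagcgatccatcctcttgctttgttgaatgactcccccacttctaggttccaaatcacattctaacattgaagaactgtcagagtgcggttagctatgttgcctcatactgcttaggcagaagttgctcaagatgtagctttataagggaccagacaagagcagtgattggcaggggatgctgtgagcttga
Timp1, chrX:20869916-20870215, plus strand: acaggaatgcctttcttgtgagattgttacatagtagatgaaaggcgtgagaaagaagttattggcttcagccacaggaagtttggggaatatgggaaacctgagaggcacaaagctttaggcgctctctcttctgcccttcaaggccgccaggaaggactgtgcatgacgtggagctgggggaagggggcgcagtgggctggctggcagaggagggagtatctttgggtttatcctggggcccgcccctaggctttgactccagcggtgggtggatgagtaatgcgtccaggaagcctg

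Total counts were 2964241 to 11798853 in the NK lesions and 5690448 to 9816212 in the Ctrl lesions. Of these, 13.7% to 65.3% in NK lesions and 12.1% to 68.7% in Ctrl lesions came from one ribosomal RNA of mitochondria, mt-Rnr2, with shares above 40% in 6 lesions, which include all 3 of mouse NK1 (47.6% to 65.3%). Ncr1, the NK cell receptor NKp46, had 175 counts in NK lesions and 5 in Ctrl lesions. Of 5 carcinoma markers, Krt8, Krt18, Epcam and Cdh1 had counts in both groups, while Krt14 had 2 counts in NK lesions and 0 in Ctrl lesions. Values below are CPM (counts scaled to the TMM-adjusted library size), either per lesion or, for the comparison, summed over the lesions of a mouse, and levels of different genes are compared only as CPM per kb of exon.

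Averaged over the 5 mice, the inhibitors and a single gelatinase held most of the transcripts of these families. Per kb of exon, Timp2 had the highest mean level over the 5 mice (49.2 CPM per kb), followed by Mmp9 (35.1), Timp1 (22.4), Mmp14 (10.5), Timp3 (6.22), Mmp2 (5.70), Mmp8 (4.68), Mmp15 (4.18), Adamts1 (3.87) and Mmp3 (3.83). In these means Mmp9 made up 46.7% of the summed Mmp level and Mmp14 13.9%, but Mmp9 was most of the sum only in KO2 and KO3. Leaving Mmp9 out lowered the Mmp sum from 106 to 39.3 CPM per kb in KO2 and from 116 to 45.5 in KO3. In NK1 the sum went from 27.3 to 21.8, in NK2 from 66.9 to 51.4 and in KO1 from 60.3 to 42.6 CPM per kb. Timp2 made up 63.2% of the Timp level, Timp1 28.7% and Timp3 7.99%. The Adamts level was spread more evenly, with 21.3% from Adamts1, 19.8% from Adamts14, 15.9% from Adamts15 and 13.4% from Adamts2.

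At 1000 counts or more over the 18 lesions stood 9 Mmp genes, 7 Adamts genes and 3 Timp genes. No count was found for Mmp1a, Mmp1b, Mmp7 (matrilysin), Mmp20 (enamelysin, the protease of tooth enamel) or Adamts16. A count of 0 over the NK lesions allows a level of up to 0.0451 CPM at a limit of 3 counts, which covers counting error only. After the filter on low counts, 32 members were tested (16 Mmp, 12 Adamts and 4 Timp genes). The other 14 had 29 counts or fewer, namely the 5 genes without a count and Mmp17, Mmp21, Mmp24, Adamts3, Adamts12, Adamts13, Adamts18, Adamts19 and Adamts20.

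The comparison asked which of these genes differed between lesions of NK mice and lesions of Ctrl mice. No member passed the test (0 of 32, adjusted p = 0.9998 for each, edgeR quasi-likelihood test with Benjamini-Hochberg adjustment), and neither did any other gene (0% of 16917). With DESeq2, 39 genes and no member passed. At an unadjusted p under 0.05, 4 of 32 members differed, against 2.52% of all tested genes (426). One was higher in NK mice, Adamts1, against 1.55% of all genes, and 3 were lower, Mmp9, Mmp8 and Mmp27, against 0.969%. Both NK mice lay above all Ctrl mice for 1 member, Mmp11, against 7.94% of all genes, and below them for 3, Mmp9, Mmp27 and Adamts9, against 6.86%. In these counts Mmp27, with no count in NK lesions, passed the filter through Ctrl mice alone and could only come out lower. The log2 fold change was below 0 for 22 of 32 members, against 51.7% of all genes. Its median was -0.30 for the 16 Mmp genes, -0.21 for the 12 Adamts genes and -0.28 for the 4 Timp genes, beside -0.028 for all tested genes. Without mouse NK2 the Mmp median was -3.34. In that fit Mmp10, Mmp13, Mmp25, Mmp27 and Mmp28 had no count in NK1, the only NK mouse left, so their values depend on the prior count. Without mouse NK1 the Adamts and Timp medians turned to 0.092 and 0.037. Without the lesions above 40% mt-Rnr2 the Mmp median turned to 0.14.

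**Figure D1:**
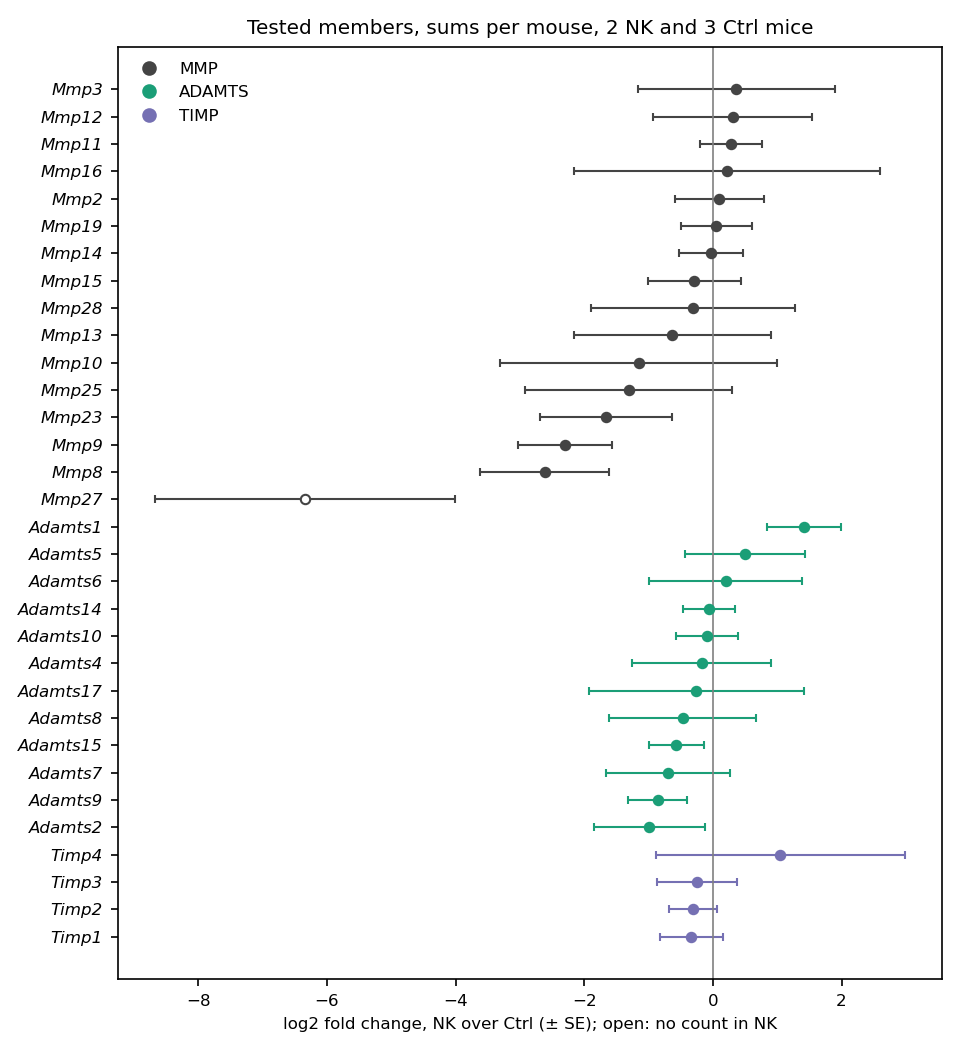
Log2 fold change of NK over Ctrl mice (horizontal axis) for the 32 tested members, with bars of 1 SE, coloured by family; the open point is Mmp27, which had no count in NK lesions, so that its place depends on the prior count of the fit. Mmp8 (-2.61) and Mmp9 (-2.30) lie farthest to the left among the genes with counts in both groups, Adamts1 (1.42) farthest to the right, and no gene passed the adjusted threshold.

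Mmp9 and Mmp8 had the largest differences among the genes with counts in both groups. Mmp9 (gelatinase B, chromosome 2, 164940780 to 164955850), which is stored in granules of neutrophils and also made by macrophages, had 19.1, 28.01 and 8.64 CPM in the lesions of NK1 and 93.7, 63.2, 40.2 and 18.9 CPM in those of NK2. In Ctrl mice it had 49.6, 8.90, 78.5, 73.8 and 29.3 CPM in KO1, 257, 215, 284 and 136 CPM in KO2, and 147 and 412 CPM in KO3. All 6 lesions of KO2 and KO3 lay above all 7 NK lesions, while the 5 lesions of KO1 lay within the range of the NK lesions. By mouse, Mmp9 averaged 37.0 ± 25.2 CPM in NK mice (SD, n = 2) and 182 ± 104 CPM in Ctrl mice (n = 3), a log2 fold change of -2.30 ± 0.73 (SE), or 4.91-fold lower in NK mice. The mice did not overlap, but the lower side of the Ctrl group was close, at 54.8 CPM in NK2 against 62.8 CPM in KO1. The unadjusted p was 0.0139, and the adjusted p of 0.9998 became 0.00436 in the edgeR quasi-likelihood test when no filter on low counts was used. Under all other alternatives run it was 0.295 (DESeq2) or higher.

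Mmp8 (neutrophil collagenase, chromosome 9, 7558456 to 7568485), a granule enzyme of neutrophils that cuts fibrillar collagen, was likewise high in KO2 and KO3. It had 1.89, 0 and 0 CPM in the lesions of NK1 and 7.21, 2.65, 4.07 and 2.79 CPM in those of NK2. The Ctrl lesions had 2.82, 3.99, 1.24, 5.75 and 0.915 CPM in KO1, 30.6, 19.5, 40.2 and 12.9 CPM in KO2, and 20.7 and 20.8 CPM in KO3. As for Mmp9, KO2 and KO3 stood above all other lesions and KO1 stood among the NK lesions. The mean was 2.72 ± 2.23 CPM in NK mice and 17.1 ± 12.5 CPM in Ctrl mice, with a log2 fold change of -2.61 ± 1.004, an unadjusted p of 0.0318 and an adjusted p of 0.0284 in the edgeR test without the filter, against 0.516 (DESeq2) or higher under all other alternatives run. The mice overlapped, with 4.30 CPM in NK2 and 3.06 CPM in KO1.

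Neutrophil markers were also highest in KO2 and KO3. The summed level of 14 neutrophil genes was 566 and 302 CPM in NK1 and NK2, against 330, 1923 and 3142 CPM in KO1, KO2 and KO3, with 12, 14, 13, 14 and 14 of the 14 genes counted in these mice. In NK1 most of the sum was Ltf (452 CPM), which secretory epithelium also makes. S100a9, a subunit of the neutrophil protein calprotectin, had 54.9 and 109 CPM in NK1 and NK2 and 106, 944 and 1550 CPM in KO1, KO2 and KO3. Mpo and Elane, which are made in neutrophil precursors, were at 0 in NK1 and at 1.11 CPM or less elsewhere. The part of neutrophil content in the values of Mmp9 and Mmp8 was not tested, and in such bulk samples fewer cells of a type and less RNA per cell cannot be told apart. Leaving out any one mouse or lesion kept the log2 fold change of Mmp9 between -3.25 (without NK2) and -1.73 (without NK1), and that of Mmp8 between -3.90 (without NK2) and -1.98 (without NK1).

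**Figure D2:**
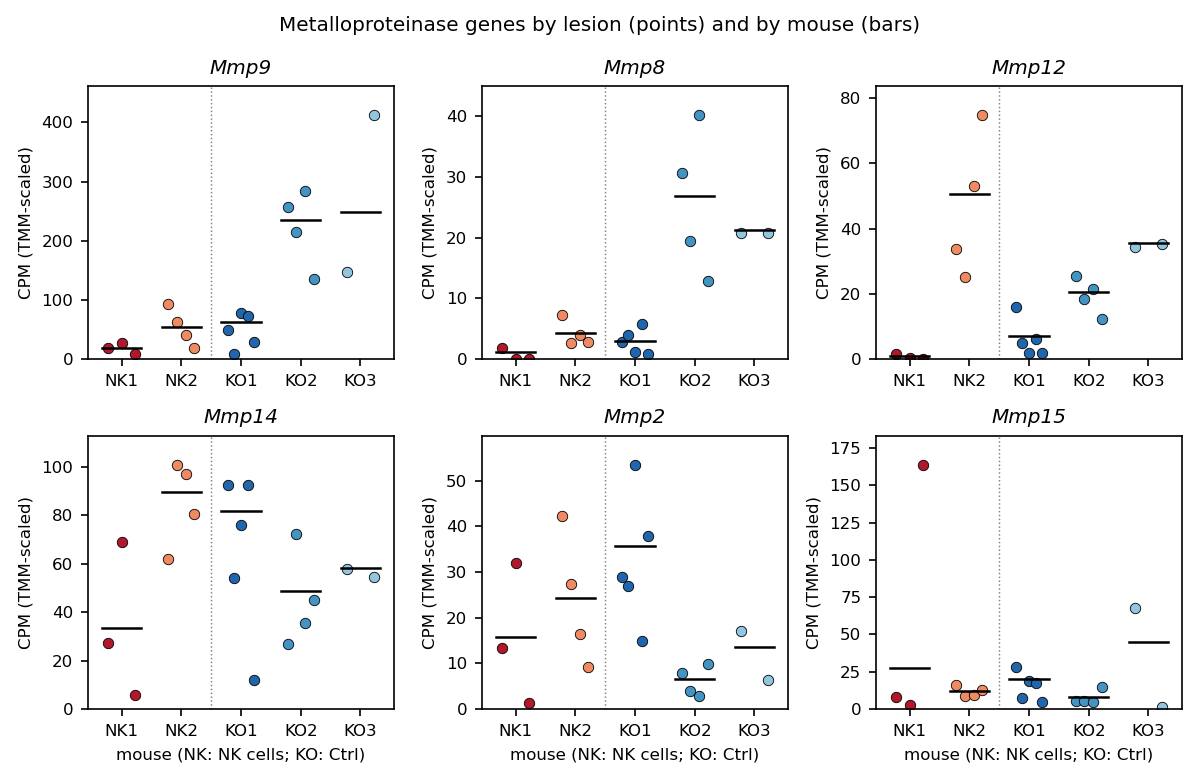
CPM (vertical axis, linear) of Mmp9, Mmp8, Mmp12, Mmp14, Mmp2 and Mmp15 in each lesion (points) and summed over each mouse (bars), with the NK mice left of the dotted line and the Ctrl mice right of it. For Mmp9 and Mmp8 the lesions of KO2 and KO3 stand above all others, Mmp12 is near 0 in NK1 only among the NK mice, and Mmp15 has a single point at 163 CPM in NK1.

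Mmp2 (gelatinase A), which stromal cells mainly make, differed more within groups than between them. It had 13.4, 32.1 and 1.44 CPM in the lesions of NK1 and 42.2, 27.3, 16.4 and 9.25 CPM in those of NK2. In Ctrl lesions it had 29.0, 27.0, 53.4, 14.8 and 38.0 CPM in KO1, 7.96, 3.89, 2.87 and 9.91 CPM in KO2, and 17.1 and 6.37 CPM in KO3. KO1 was the highest mouse and KO2 the lowest, the reverse of their order for Mmp9. The log2 fold change of 0.10 ± 0.69 was smaller than its error (unadjusted p = 0.886, edgeR), and it ran between -0.31 without KO2 and 1.01 without KO1.

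Macrophage elastase, Mmp12, separated mice more sharply than treatments. It had 1.73, 0.406 and 0 CPM in the lesions of NK1, and 33.8, 25.3, 53.2 and 74.7 CPM in those of NK2. Among Ctrl lesions, the values were 15.97, 4.91, 1.79, 6.10 and 1.83 CPM in KO1, 25.4, 18.6, 21.6 and 12.4 CPM in KO2, and 34.4 and 35.2 CPM in KO3. The lowest and the highest mouse were thus both NK mice (NK1 at 1.14 CPM, NK2 at 50.7 CPM), and the estimated share of the variance between lesions that lay between mice was 0.854. For Mmp12 this gave a log2 fold change of 0.31 ± 1.24, which was -4.20 without NK2 and 1.27 without NK1. A list of 13 macrophage genes, all counted in every mouse, summed to 2403 and 3905 CPM in NK1 and NK2 and to 1691, 3332 and 3245 CPM in KO1, KO2 and KO3. Most of these sums was Lyz2, with 2033 CPM in NK1 and 1338 CPM in KO1. Of the same list, Adgre1 (16.9 CPM) and Mrc1 (91.7 CPM) were highest in NK1. Csf1r (45.3 CPM), C1qc (44.9 CPM), Chil3 (16.6 CPM), Itgax (3.05 CPM) and Marco (0.0952 CPM) were lowest in NK1. For the rest of the list NK1 lay between other mice. The part of macrophage content in the Mmp12 values was not tested.

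Stromelysin 1 (Mmp3) and collagenase 3 (Mmp13), neighbours of Mmp12 that were chosen after their values were seen, had the same low mouse among the NK pair. Mmp3 had 0.571 and 15.3 CPM in NK1 and NK2, against 5.99, 12.4 and 0.174 CPM in KO1, KO2 and KO3. Mmp13 had 0 and 3.66 CPM in NK1 and NK2, against 6.21, 1.69 and 0.783 CPM in KO1, KO2 and KO3. KO3, which was high for Mmp12 and Mmp8, was thus the lowest Ctrl mouse for both genes. Their log2 fold changes were 0.37 ± 1.54 for Mmp3 and -0.63 ± 1.53 for Mmp13. The AP-1 element printed above is present in the promoters of Mmp3 and Mmp13.

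Mmp27, also on chromosome 9 (7571396 to 7581885), had no count in the 7 NK lesions and 28 counts in 5 of the 11 Ctrl lesions. Those were 2 and 1 counts in KO1-1 and KO1-3, 6 and 14 in KO2-2 and KO2-4, and 5 in KO3-2. With a floor of 3 counts for the whole NK group, the pooled Ctrl level of Mmp27 was 6.68-fold above that floor. Without KO2-4, which held 14 of the 28 counts, it was 3.86-fold above. These folds cover counting error only and not the spread between mice. Mmp27 passed the filter through Ctrl mice alone and could only come out lower, so its p-value carries no weight (unadjusted p = 0.0301, adjusted p = 0.9998, edgeR). The other 6 Ctrl lesions had no count either, so the gene rests on few lesions.

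Membrane-type enzymes varied between lesions of one mouse. Mmp14 (MT1-MMP, chromosome 14, 54431612 to 54445364), which activates the Mmp2 precursor at the cell surface, had 27.3, 69.0 and 5.76 CPM in the lesions of NK1 and 62.0, 101, 96.9 and 80.4 CPM in those of NK2. The Ctrl lesions had 92.4, 54.0, 75.8, 92.2 and 11.9 CPM in KO1, 26.7, 72.0, 35.4 and 45.0 CPM in KO2, and 57.9 and 54.5 CPM in KO3. The groups overlapped throughout, with a mean of 61.4 ± 39.6 CPM in NK mice and 62.9 ± 16.8 CPM in Ctrl mice and a log2 fold change of -0.033 ± 0.49. That sign depended on the mouse, at -0.92 without NK2 and 0.51 without NK1.

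Mmp15 (MT2-MMP), also anchored in the membrane, had 8.36, 2.84 and 163 CPM in the lesions of NK1 and 16.3, 8.85, 9.23 and 12.7 CPM in those of NK2. Ctrl lesions gave 28.05, 7.37, 18.7, 17.1 and 4.57 CPM in KO1, 5.14, 5.51, 4.49 and 14.6 CPM in KO2, and 67.9 and 1.18 CPM in KO3. One lesion in each group, NK1-3 and KO3-1, stood far above the rest. These 2 lesions also had the highest sums of the 6 airway epithelium markers, 24602 CPM in NK1-3 and 15894 CPM in KO3-1. The next highest sums, 4512 CPM in NK1-1 and 4315 CPM in KO1-3, stood beside 8.36 and 18.7 CPM of Mmp15. The part of airway content in the Mmp15 values was not tested. Its log2 fold change of -0.29 ± 0.72 was -1.32 without NK1-3 and 1.02 without KO3-1.

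Mmp11 (stromelysin 3), which fibroblasts around carcinomas make, was the one member whose 2 NK mice lay above all Ctrl mice. Its lesions had 6.62, 11.0 and 20.2 CPM in NK1 and 9.98, 13.4, 8.07 and 4.94 CPM in NK2. In Ctrl mice it had 7.21, 14.4, 5.12, 5.98 and 9.15 CPM in KO1, 8.13, 7.86, 9.52 and 2.66 CPM in KO2, and 7.91 and 8.02 CPM in KO3. The separation was small, with 9.30 ± 0.0961 CPM in NK mice and 7.62 ± 0.502 CPM in Ctrl mice, and the lesions overlapped. Its log2 fold change of 0.29 ± 0.48 was within its error (unadjusted p = 0.566, edgeR). The gene span of Mmp11 overlaps that of Chchd10 on the other strand, and shared exons were not examined. As no source used here gives the strandedness of the counting, reads from any shared exon sequence could not be told apart.

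The remaining tested Mmp genes were Mmp10, Mmp16, Mmp19, Mmp23, Mmp25 and Mmp28. Of these, Mmp19 had 1684 counts and a log2 fold change of 0.054 ± 0.56, and Mmp23 had 229 counts and -1.66 ± 1.03. The other 4 had 131 counts or fewer, and their fold changes, 0.22 for Mmp16, -0.31 for Mmp28, -1.15 for Mmp10 and -1.31 for Mmp25, were all smaller than their errors. The gene span of Mmp19 overlaps that of Tmem198b on the other strand.

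Among the Adamts genes, Adamts1 was higher in a single NK mouse. Adamts1 (chromosome 16, 85793827 to 85803113), an extracellular protease that cuts versican and aggrecan, had 64.2, 39.0 and 28.1 CPM in the lesions of NK1 and 9.98, 9.75, 25.2 and 9.95 CPM in those of NK2. Values in Ctrl lesions were 14.9, 13.5, 12.7, 16.1 and 15.5 CPM in KO1, 11.0, 10.7, 5.39 and 8.49 CPM in KO2, and 8.31 and 18.6 CPM in KO3. All 3 lesions of NK1 and the third lesion of NK2 lay above every Ctrl lesion, while the other 3 lesions of NK2 lay within the Ctrl range. By mouse, NK1 had 51.6 CPM and NK2 14.2 CPM, against 14.9, 9.57 and 12.4 CPM in KO1, KO2 and KO3. Adamts1 had a log2 fold change of 1.42 ± 0.57 (unadjusted p = 0.0385, adjusted p = 0.9998, edgeR), against 0.21 without NK1 and 2.07 without NK2.

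Fibroblast markers were also counted in each mouse. A list of 10 fibroblast genes, all counted in every mouse, summed to 6032 and 1291 CPM in NK1 and NK2, against 782, 647 and 331 CPM in KO1, KO2 and KO3. Most of the sum in NK1 was Col3a1 (4652 CPM). Lum was also higher in NK1 than in KO1 (386 against 23.2 CPM), as were Dpt (316 against 43.3 CPM) and Dcn (297 against 77.6 CPM). So were Col6a3 (229 against 47.2 CPM) and Fbln1 (14.8 against 11.1 CPM). Lower in NK1 than in KO1 were Col1a1 (14.3 against 39.3 CPM), Col1a2 (82.3 against 171 CPM), Pdgfra (39.3 against 42.8 CPM) and Tcf21 (0.381 against 1.03 CPM). In KO2 and KO3, Col1a1 (5.70 and 6.44 CPM) and Col1a2 (56.1 and 16.1 CPM) were lower than in NK1. Pdgfra had 33.2 and 39.3 CPM there, and Tcf21 1.01 and 2.18 CPM. Lum, Dpt, Dcn, Col6a3 and Fbln1 were higher in NK1 than in KO2 and KO3 too, with Dcn at 177 CPM in KO2. Without Col3a1, a choice made after its values were seen, the sum was 1380 and 701 CPM in NK1 and NK2, against 457, 324 and 189 CPM in KO1, KO2 and KO3. Within NK1 the fibroblast sum was 8574 CPM in NK1-1, 3356 CPM in NK1-2 and 539 CPM in NK1-3, and NK1-1 alone had a high sum of 4 fat markers (1253 CPM, against 4.72 CPM or less in all other lesions). In NK1-3, where Adamts1 was above every Ctrl lesion on 39 counts, the fibroblast sum lay within the range of Ctrl lesions. In NK2-3, also above every Ctrl lesion for Adamts1, the fibroblast sum was 1550 CPM. The other lesions of NK2, within the Ctrl range for Adamts1, had fibroblast sums of 1101 to 1169 CPM. The share of mt-Rnr2 was above 40% in all 3 lesions of NK1. The parts of these contents in the Adamts1 values were not tested.

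Adamts9, another versican protease, had 7.89, 5.68 and 10.8 CPM in the lesions of NK1 and 19.7, 8.71, 9.52 and 6.28 CPM in those of NK2. In the Ctrl mice it had 26.0, 6.75, 16.3, 26.1 and 8.69 CPM in KO1, 10.7, 14.9, 9.61 and 19.1 CPM in KO2, and 16.3 and 14.2 CPM in KO3. Both NK mice lay below all Ctrl mice, at 9.42 ± 2.68 CPM in NK mice and 17.1 ± 3.23 CPM in Ctrl mice, although the lesions overlapped. This gave a log2 fold change of -0.86 ± 0.46 (unadjusted p = 0.0990, edgeR), which stayed between -1.19 and -0.59 when any one mouse or lesion was left out.

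Adamts5 (aggrecanase 2) had 5.99, 9.74 and 31.7 CPM in the lesions of NK1 and 1.17, 0.0697, 3.71 and 0 CPM in those of NK2. The Ctrl lesions had 2.05, 0.307, 4.58, 0 and 0 CPM in KO1, 3.60, 3.60, 1.17 and 14.5 CPM in KO2, and 5.27 and 0 CPM in KO3. NK1 was the highest mouse, as for Adamts1, with 1 lesion far above the rest, and NK2 was the lowest. Without that lesion, NK1-3, the level of Adamts5 in NK1 was 7.22 CPM. Its log2 fold change of 0.50 ± 0.93 was -1.70 without NK1 and 1.35 without NK2.

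The procollagen proteases Adamts2 and Adamts14, which remove the amino-terminal propeptide of fibrillar collagens, did not pass the test. Adamts2 had 2.05, 34.1 and 2.88 CPM in NK1 lesions and 18.1, 31.3, 13.4 and 10.1 CPM in NK2 lesions, against 23.7, 13.2, 32.0, 11.7 and 3.66 CPM in KO1, 2.91, 10.8, 1.26 and 5.08 CPM in KO2 and 19.5 and 120 CPM in KO3. Lesion KO3-2 alone carried the high Ctrl value, and the log2 fold change of -0.99 ± 0.86 was 0.024 without KO3. Adamts14 had 11.5, 33.3 and 15.1 CPM in NK1 lesions and 17.1, 14.8, 23.6 and 19.2 CPM in NK2 lesions, against 11.6, 53.7, 16.1, 13.6 and 59.9 CPM in KO1, 6.42, 11.97, 21.7 and 17.1 CPM in KO2 and 20.8 and 20.5 CPM in KO3. Its mice were close together, with 18.2 ± 2.07 CPM in NK mice and 19.1 ± 3.51 CPM in Ctrl mice and a log2 fold change of -0.066 ± 0.41.

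Adamts15, a versican protease, had 26.8, 15.4 and 0 CPM in the lesions of NK1 and 33.8, 34.5, 16.1 and 18.3 CPM in those of NK2. In Ctrl lesions it had 25.3, 25.2, 19.0, 28.9 and 0.915 CPM in KO1, 67.1, 32.7, 19.7 and 29.4 CPM in KO2, and 52.6 and 16.05 CPM in KO3. The mice overlapped at NK2 and KO1 (log2 fold change -0.57 ± 0.43, unadjusted p = 0.222, edgeR). The other tested Adamts genes, Adamts4, Adamts6, Adamts7, Adamts8, Adamts10 and Adamts17, had log2 fold changes from -0.70 (Adamts7) to 0.20 (Adamts6), each smaller than its error. Adamts7 overlaps Tbc1d2b on the other strand.

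Of the inhibitors, none of the 4 differed beyond its error. Timp2 (chromosome 11, 118301069 to 118355740), which also takes part in the activation of Mmp2 by Mmp14, had 107, 246 and 74.9 CPM in the lesions of NK1 and 181, 196, 202 and 193 CPM in those of NK2. Ctrl lesions gave 215, 215, 227, 212 and 291 CPM in KO1, 168, 199, 181 and 199 CPM in KO2, and 169 and 222 CPM in KO3. Only NK1-1 and NK1-3 lay below all Ctrl lesions, and the SD of log2 CPM within mice, 0.37, was the smallest of the 19 members at 1000 counts or more. The mean was 168 ± 50.3 CPM in NK mice and 208 ± 20.5 CPM in Ctrl mice (log2 fold change -0.31 ± 0.37, unadjusted p = 0.430, edgeR).

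Timp3, which binds to the matrix, had 13.2, 15.02 and 24.5 CPM in the lesions of NK1 and 80.0, 48.8, 94.4 and 67.5 CPM in those of NK2. Values in Ctrl lesions were 102, 12.9, 47.0, 41.7 and 4.12 CPM in KO1, 37.0, 47.4, 74.0 and 49.3 CPM in KO2, and 55.9 and 37.1 CPM in KO3. The Ctrl mice lay close together at 54.2 ± 3.47 CPM, between NK1 at 14.8 CPM and NK2 at 76.0 CPM. The log2 fold change of -0.25 ± 0.62 was -1.88 without NK2 and 0.49 without NK1. The Ctrl lesions with the least Timp3, KO1-5 and KO1-2, were among the 6 lesions above 40% mt-Rnr2, as were the 3 lesions of NK1; the sixth, KO3-2, had 37.1 CPM.

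Timp1, the secreted inhibitor induced in inflammation, had 9.78, 20.7 and 2.16 CPM in the lesions of NK1 and 23.5, 31.6, 18.8 and 15.7 CPM in those of NK2. In the Ctrl mice it had 18.7, 17.5, 28.3, 16.5 and 15.1 CPM in KO1, 33.5, 22.8, 18.5 and 28.6 CPM in KO2, and 10.5 and 23.6 CPM in KO3. NK1 was again the lowest mouse, and the log2 fold change of -0.34 ± 0.49 was -0.98 without NK2 and 0.10 without NK1. Timp4, an inhibitor found mainly in heart and fat, had 14 counts in NK lesions, 11 of them in NK1-1, and 24 in Ctrl lesions, 18 of them in KO1-3. Per lesion this gave 1.73, 0 and 0.720 CPM in NK1 and 0.0728, 0.0697, 0 and 0 CPM in NK2, against 0.390, 0, 1.40, 0 and 0 CPM in KO1, 0 in all 4 lesions of KO2, and 0.264 and 0 CPM in KO3. The sum of 4 cardiac muscle markers was 115 CPM in NK1-1, with 4 of the 4 counted. In NK1-3 it was 73.4 CPM, with only 1 of the 4 counted, and in all other lesions 19.6 CPM or less. The fat sum was 1253 CPM in NK1-1. Their part in the Timp4 values was not tested. Timp1, Timp3 and Timp4 overlap the synapsin genes Syn1, Syn3 and Syn2 on the other strand.

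**Figure D3:**
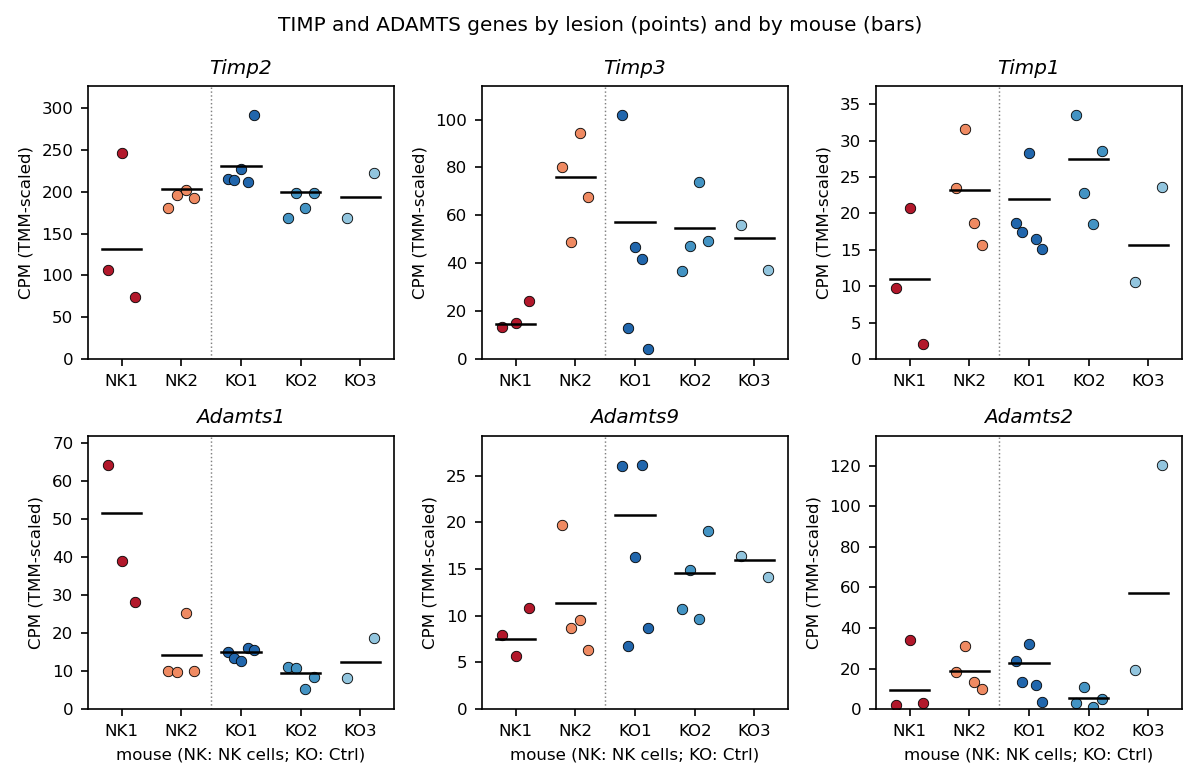
CPM (vertical axis, linear) of Timp2, Timp3, Timp1, Adamts1, Adamts9 and Adamts2 in each lesion (points) and summed over each mouse (bars), NK mice left of the dotted line. NK1 is the lowest mouse for the 3 Timp genes and the highest for Adamts1, at 51.6 CPM, and the high Adamts2 level of KO3 comes from 1 lesion at 120 CPM.

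The 2 NK mice differed from each other in most of these genes. NK1 was lower than NK2 for 21 of the 25 tested members with counts in both (84.0%), against 49.7% of all tested genes, with a median log2 ratio of NK1 to NK2 of -0.97, against 0.0052 for all genes. NK1 was the lowest of the 5 mice for 16 of 32 members, against 27.0% of all tested genes. The 4 exceptions were Adamts1, Adamts5, Mmp15 and Timp4, for which NK1 was above NK2. The part of the high mt-Rnr2 share of NK1 in these values was not tested.

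**Figure D4:**
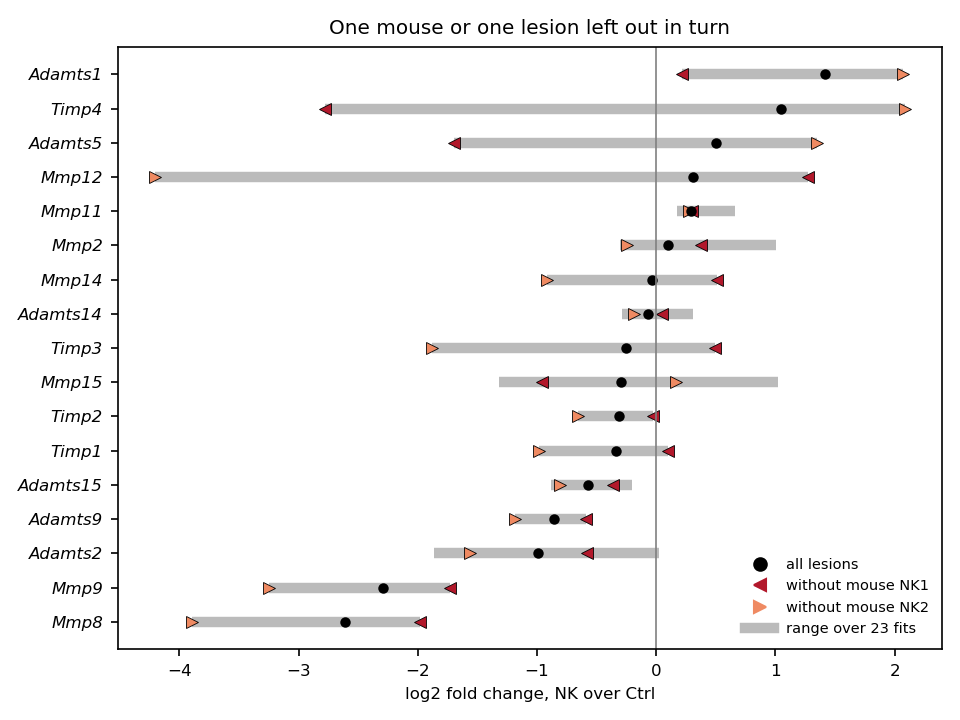
Log2 fold change of NK over Ctrl (horizontal axis) of 17 members with all lesions (black), without mouse NK1 or NK2 (triangles), and the range over 23 fits that each left out 1 mouse or 1 lesion (grey). Mmp8, Mmp9, Adamts9, Adamts15 and Timp2 stay below 0, Timp2 only at -0.028 without NK1. Adamts1 and Mmp11 stay above 0, Adamts1 only at 0.21 without NK1. Timp3, Mmp14 and Mmp12 cross 0 between the fits without either NK mouse.

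Summed per kb over each family, the Mmp level was 27.3 and 66.9 CPM per kb in NK1 and NK2, against 60.3, 106 and 116 CPM per kb in KO1, KO2 and KO3. The Timp level was 48.3 and 87.7 CPM per kb in NK1 and NK2, against 91.3, 88.8 and 73.4 CPM per kb in KO1, KO2 and KO3. The Adamts level was 18.1 ± 1.34 CPM per kb in NK mice and 18.3 ± 3.53 CPM per kb in Ctrl mice. For the Mmp and Timp sums the groups overlapped. The ratio of Timp to Mmp transcripts was 1.77 and 1.31 in NK1 and NK2, against 1.51, 0.840 and 0.634 in KO1, KO2 and KO3, so KO1 lay between the NK mice. Without Mmp9 the ratio was 2.21 and 1.71 in NK1 and NK2 and 2.15, 2.26 and 1.61 in KO1, KO2 and KO3, so both NK mice then lay within the range of the Ctrl mice. Transcript ratios do not measure enzyme or inhibitor activity.

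**Figure D5:**
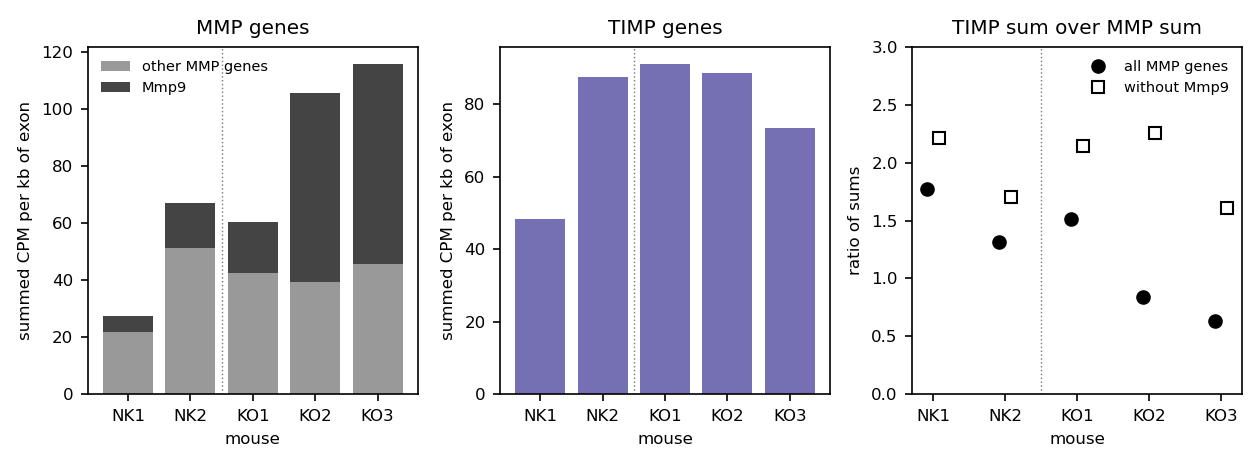
Summed CPM per kb of exon of the Mmp genes (left, Mmp9 dark) and the Timp genes (middle) in each mouse, and the ratio of the Timp to the Mmp sum (right) with all Mmp genes (filled) and without Mmp9 (open), NK mice left of the dotted line. The dark Mmp9 portion is largest in KO2 and KO3, whose ratios of 0.840 and 0.634 are the lowest, and without it all 5 mice lie between 1.61 and 2.26.

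A list of 40 further genes of matrix proteolysis showed no call either (0 of 35 tested, edgeR). Log2 fold changes were above 0 for 15 and below 0 for 20, against 51.7% of all genes below 0, with a median of -0.15. One had an unadjusted p under 0.05, against 2.52% of all genes. That was Thbs2 (thrombospondin 2, which binds Mmp2 and aids its uptake into cells), with 100 and 41.0 CPM in NK1 and NK2, against 17.9, 20.7 and 4.35 CPM in KO1, KO2 and KO3 (log2 fold change 2.29 ± 0.68, unadjusted p = 0.00973, adjusted p = 0.9998, edgeR). Thbs2 is also made by fibroblasts, whose summed markers are given above with Adamts1, and the part of that content was not tested.

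Lcn2, whose human form binds MMP9 and protects it from breakdown and which also stands in the neutrophil list, had 3.81 and 59.9 CPM in NK1 and NK2, against 43.1, 107 and 362 CPM in KO1, KO2 and KO3 (log2 fold change -2.41 ± 1.28, unadjusted p = 0.102, edgeR). The lysosomal cathepsins all had values above 0 (5 of 5, none with an unadjusted p under 0.05), among them 0.55 ± 0.42 for Ctsd, 0.10 ± 0.42 for Ctsb and 0.14 ± 0.45 for Ctsl. The Mmp inducer Bsg had -0.056 ± 0.35 and the ADAMTS substrate Vcan (versican) 0.57 ± 0.39. Of the 9 membrane ADAM proteases, 3 were above 0 and 6 below, 5 of the 6 tested genes of the plasminogen system were below 0, and of the 5 tested ADAMTS-like genes 2 were above 0 and 3 below. Both NK mice lay above all Ctrl mice for 4 of the 35 genes (Adam9, Adam10, Adam17 and Thbs2), against 7.94% of all genes. They lay below them for 1, against 6.86%, namely Adam8, a protease of myeloid cells, with 23.5 and 27.2 CPM in NK1 and NK2 and 33.2, 41.5 and 78.1 CPM in KO1, KO2 and KO3.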

How the data were processed

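Gene expression was measured in 18 laser-captured lung lesions of 5 mice, with 2 ng of total RNA per library (QIAseq FX single cell RNA library kit, per the labels' protocols). The submitters' processing notes name bcl2fastq 2.17, STAR, RSEM 1.2.28, DESeq2 and the build mm10. The deposited gene table holds expected counts, as RSEM estimates them, not scaled by the authors, and these were rounded to whole numbers. A second deposited table holds log2 values normalized by the authors, with no account of the transformation in the sources used here, and served only as an alternative. No column of sample values was left unmapped (0 columns).

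The lesions of a mouse were added up and the 5 sums compared with edgeR 4.0.16 (R 4.3.3) by the robust quasi-likelihood test, with TMM scaling, filterByExpr (minimum count 10, total 15), Benjamini-Hochberg adjustment over all 16917 tested genes and a threshold of 0.05. The common coefficient of variation was 64.9%. SE is the size of the log2 fold change divided by the square root of F. The test was checked on simulated data, but its power for changes of the size seen here is not reported. Gene identifiers matched a symbol for 49326 of 49585, and positions are from GENCODE M21 (GRCm38, mm10). Spread within mice was taken on log2(CPM + 0.5). Floors cover counting error only, whereas the SE also includes the spread between mice as the fit estimated it. The labels name separate hosts but no separate experiments, so p-values measure only the spread between these mice.

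The genes, lists and tests were chosen with earlier results of these data known. Values in every lesion are given for the 4 Timp genes, the 10 proteases with the highest mean CPM, the 4 tested proteases with the smallest unadjusted p in each direction, and tested genes whose mice did not overlap, 18 genes in all. Of the further list, genes with an unadjusted p under 0.05 and the 6 with the highest mean CPM are named by rule, and its other named genes were chosen after their values were seen. Alternatives were another scaling (RLE), other filters, DESeq2 1.42.0, limma 3.58.1 on lesions with the mouse as a random block, on equally weighted lesions and on the log2 table, and leaving out the lesions above 40% mt-Rnr2, each mouse and each lesion. Mmp1a and Mmp1b are related genes whose sequences were not compared here, and neither had a count.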

Additional observations from a re-analysis of the deposited data

Results flagged for a closer look

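Among the 7 NK lesions, 4 of the 17 members examined had 1 lesion far from the others. Mmp15 reached 163 CPM in NK1-3, with 16.3 CPM in the next lesion. Adamts5 reached 31.7 CPM in the same lesion, with 9.74 CPM in the next. Adamts9 reached 19.7 CPM in NK2-1, with 10.8 CPM in the next. Timp4 reached 1.73 CPM in NK1-1, with 0.720 CPM in the next, and rests there on 11 counts. For independent, normally distributed values chance would flag about 5% of groups. The 7 lesions come from 2 mice and are not independent, so the 4 of 17 cannot be set against that rate.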

How the results depend on the processing

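No gene of the 16917 passed the adjusted threshold in the edgeR test. Without a filter on low counts 224 genes passed, 2 of them members (Mmp9, -2.28, adjusted p = 0.00436, and Mmp8, -2.60, adjusted p = 0.0284), with DESeq2 39 genes and no member, and none in the other alternatives. Leaving out 1 mouse or lesion gave 0 to 4 genes (4 without NK2). The median log2 fold change ran from -3.34 (without NK2) to 0.021 (without KO2-2) for Mmp genes (-0.0026 with 10 counts in at least 9 lesions), from -0.80 (without NK2) to 0.092 (without NK1) for Adamts genes, and from -0.82 (without NK2) to 0.037 (without NK1) for Timp genes. The Mmp median without NK2 includes Mmp10, Mmp13, Mmp25, Mmp27 and Mmp28, which had no count in NK1, the only NK mouse left. With the mouse as a random block the Mmp median was 0.071 and the Adamts median 0.093. Without the 6 lesions above 40% mt-Rnr2, a choice that drops NK1 and leaves NK2 alone, assumed to vary like the Ctrl mice, the Mmp median was 0.14, the Adamts median 0.25 and the Timp median 0.085.

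Of the 18 genes named by rule, 7 kept their direction under every alternative that gave a value (Adamts1, Adamts9, Adamts15, Mmp8, Mmp9, Mmp11 and Mmp27) and 11 did not; the cause was not tested. Mmp27 gave none in 8 of them and, with no NK count, could not turn. Under the random block, direction turned for Adamts14 (0.16), Adamts2 (0.067), Adamts5 (-0.55), Mmp14 (0.10) and Mmp15 (0.046). It turned for Mmp12 (-1.47) and Mmp15 (0.54) with equal weight of lesions, and for Mmp12 (-0.68) and Mmp15 (0.42) in the log2 table. Without the lesions above 40% mt-Rnr2 it turned for Adamts14 (0.19), Adamts2 (0.14), Adamts5 (-1.97), Mmp14 (0.42), Timp1 (0.17), Timp2 (0.0024), Timp3 (0.34) and Timp4 (-3.12). Over the 23 fits that left out 1 mouse or lesion, log2 fold changes ran from -0.29 to 0.31 for Adamts14, -1.86 to 0.024 for Adamts2, -1.70 to 1.35 for Adamts5, -4.20 to 1.27 for Mmp12, -0.92 to 0.51 for Mmp14, -1.32 to 1.02 for Mmp15, -0.31 to 1.01 for Mmp2, -0.98 to 0.10 for Timp1, -1.88 to 0.49 for Timp3 and -2.78 to 2.08 for Timp4. No paired analysis was possible because the numbers in the labels name hosts and lesions and link no NK mouse to a Ctrl mouse. Depth limits the genes of few counts, since 14 members were not tested and Timp4 and Mmp27 rest on 38 and 28 counts.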
